A study of Oryza sativa with 45 samples.

Results

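The genes whose transcripts were highest at 2 d in the rice cultivar IR64, relative to every later day sampled, were followed through 14 d of growth underwater in IR64 and in 3 lines carrying flooding loci. They were selected on the levels in the IR64 libraries alone. Each gene's count as a share of the library total, scaled to the usual unit of CPM, was averaged by day, genes with a 2 d mean of at least 10 CPM were kept, and these were ranked by the 2 d mean plus 0.5 CPM over the highest of the 4, 8 and 14 d means plus 0.5 CPM. The first 150 were taken, out of 11215 genes that passed the minimum and 35677 in the table. The values of IR64 therefore chose the genes and are given below as a description, with no test, and tests were made only among the other lines.

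The lines were IR64(AG1,SUB1), IR64(AG1) and IR64(SUB1), each set beside IR64, an indica cultivar that forms the background of all of them. AG1 is a chromosome 9 interval that holds TPP7, a trehalose 6-phosphate phosphatase gene that promotes coleoptile growth during germination underwater, and IR64 lacks it. SUB1 brings SUB1A-1, an ethylene-responsive transcription factor gene that restrains underwater shoot elongation. IR64 itself and IR64(AG1) hold the weaker allele SUB1A-2 in its place. Each line is a near-isogenic introgression line, so donor segments other than the named locus cannot be told apart from it. In all groups dry seeds were placed in soil and kept fully submerged, and tissue was taken from pools of 45 seedlings at 2, 4, 8 and 14 d, with no library from plants grown in air among the 45 analysed. The labels give the tissue as embryo at 2 d and as coleoptile on the later days, while the methods name embryo, coleoptile and shoot tissue together, so a difference between 2 d and a later day cannot be told apart from a difference of tissue. Each group had 3 libraries, except that IR64(SUB1) had 2 at 8 d and the pyramided line had 2 at both 2 d and 4 d.

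A cereal seed enters germination with transcripts laid down during its maturation on the mother plant. In the rice grain the endosperm stores starch together with glutelins and prolamins, which are its main storage proteins, while the embryo and the aleurone hold oil bodies coated by oleosins. VP1, a B3-domain transcription factor, acts with abscisic acid to switch on maturation genes and to hold back germination. Messages of this kind fade as reserves are used and the seedling axis grows, and underwater the coleoptile elongates first and leaves follow.

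Total counts per library ran between 12256409 and 24870831, so that 3 counts corresponded to 0.121 to 0.245 CPM. The IR64(AG1,SUB1) 2 d library of replicate 3 had the fewest genes with a count, 21560. The summed level of the 2 leaf markers described, both chlorophyll a/b-binding protein genes, was 0 to 0.76 CPM at 2 d, 620 to 2675 CPM at 8 d and 1703 to 5392 CPM at 14 d. In such bulk samples fewer cells of a type and less RNA per cell cannot be told apart. The means and ratios used for ranking are CPM on plain library totals, and the values of single genes and blocks in each library are CPM on library sizes scaled by the trimmed mean of M values.

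Descriptions were found for 41 of the 150 genes, through the study's supplementary tables. These tables described 3800 genes of the count table, 2225 of them on chromosome 1, so the named genes are not a fair sample of the group. The other 109 are given by identifier only. The group was spread over the genome, with 4 genes on chromosome 11 at the low end and 22 on chromosome 5 at the high end.

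The group was marked by a peak at 2 d but was not confined to that day. In IR64 the ratio used for ranking was 13.6 for the first gene, 6.86 for the second and 2.50 at the median, and only 13 genes reached a ratio of 4. At the edge of the group the last genes taken, OS03G0277600 and OS03G0769700, had ratios of 1.99 and 1.99, and the first left out, OS08G0452500 and OS06G0176600, had ratios of 1.98 and 1.98. The median of the IR64 means was 41.4, 15.6, 7.09 and 2.29 CPM at 2, 4, 8 and 14 d. At 4 d 94 of the 150 genes still averaged 10 CPM or more in IR64, and at 14 d 28 did, while 45 were under 0.5 CPM. The next highest day was 4 d for 119 genes, 8 d for 22 and 14 d for 9. Every one of the 150 had a count in each 2 d and each 4 d library of all genotypes.

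Together the 150 genes took 1.56% and 1.41% of all counts in the IR64(AG1,SUB1) embryos at 2 d, 1.54%, 1.63% and 1.77% in IR64(AG1), 1.61%, 1.61% and 1.79% in IR64(SUB1), and 2.06%, 1.78% and 1.94% in IR64. All of the IR64 values lay above all but the highest of the other lines, as the choice of genes in IR64 favours. Over the 4 genotypes the share was 1.41% to 2.06% at 2 d, 0.659% to 0.839% at 4 d, 0.198% to 0.385% at 8 d and 0.115% to 0.169% at 14 d. The ranges of successive days did not overlap.

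**Figure D1:**
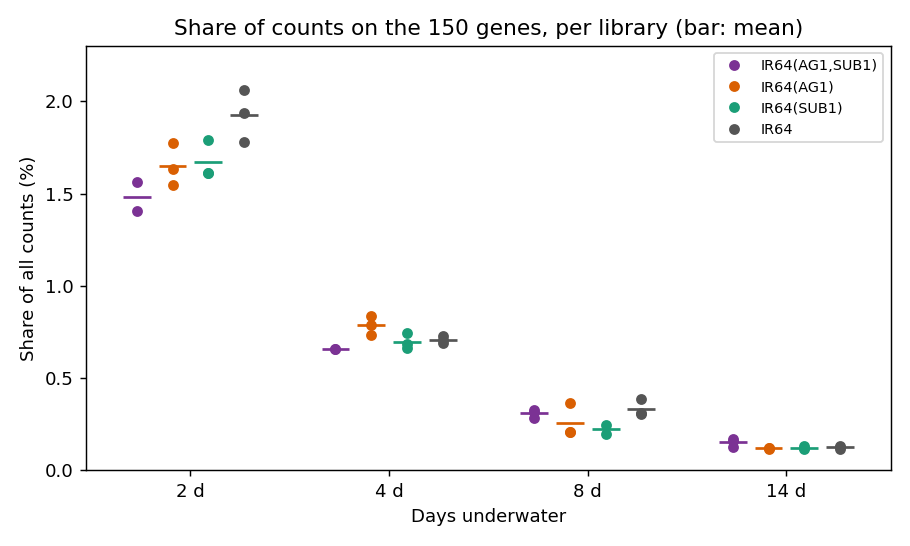
Share of all counts in a library (%, y axis) taken by the 150 genes at 2, 4, 8 and 14 d underwater (x axis) in the 4 genotypes, with 1 point a library and a bar at the mean. The 2 d libraries sit at 1.41% to 2.06% and the 14 d libraries at 0.115% to 0.169%, with no overlap between successive days.

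The fall after 2 d was also found in the lines whose libraries had no part in choosing the genes. In IR64(AG1,SUB1) 146 of the 150 had their highest mean at 2 d, in IR64(AG1) all but 1 and in IR64(SUB1) 148. In IR64(AG1,SUB1) the median gene kept 48.0% of its 2 d level after 4 d, 18.5% after 8 d and 7.65% after 14 d. In IR64(AG1) the medians were 48.3%, 14.1% and 4.64%, and in IR64(SUB1) 44.0%, 11.7% and 3.88%. In IR64, where the genes were chosen, the medians were 41.7%, 18.7% and 4.04%. The decline was gradual, and in each genotype the median gene lost more by 8 d and more again by 14 d.

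**Figure D2:**
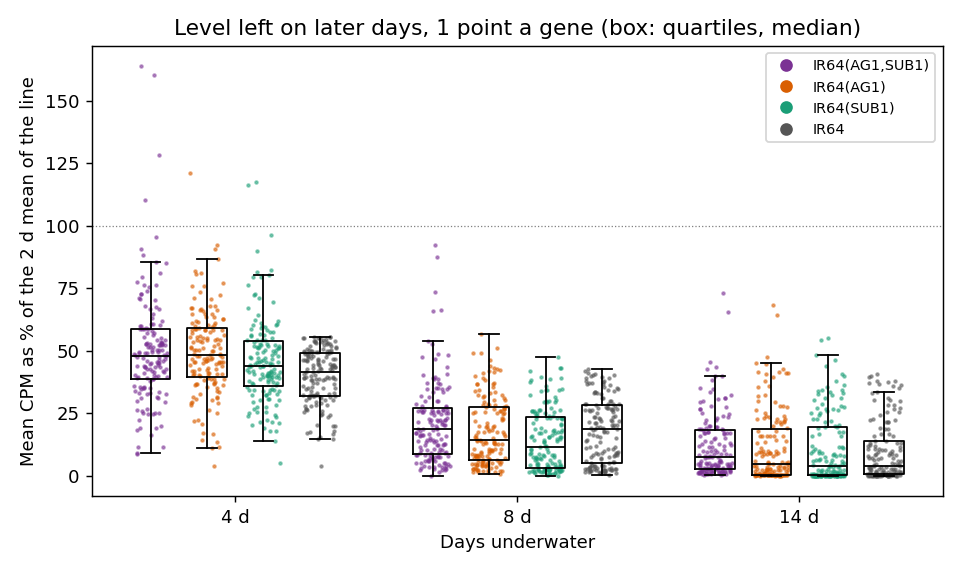
Mean CPM at 4, 8 and 14 d as a percentage of the 2 d mean of the same genotype (y axis), with 1 point for each of the 150 genes, boxes at the quartiles and a line at the median. Points above the dotted line at 100% are the genes highest at 4 d, which were 4 in IR64(AG1,SUB1), 1 in IR64(AG1) and 2 in IR64(SUB1).

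By edgeR's quasi-likelihood test, with a call at an adjusted p under 0.05 over 26180 genes and a log2 fold change beyond 1, 72 of the 150 genes fell at 4 d in IR64(AG1,SUB1), against 3.72% of all genes tested. In IR64(AG1) 74 fell, against 3.16% of all genes, and in IR64(SUB1) 94 fell, against 4.1%. None rose by that rule at 4, 8 or 14 d in any of the 3 lines, where 7.93%, 26.1% and 32.0% of all genes rose in IR64(AG1,SUB1), 5.17%, 26.1% and 31.4% in IR64(AG1), and 7.87%, 26.9% and 31.9% in IR64(SUB1). The 11215 genes past the 2 d minimum are a closer comparison, and rises were rarer among them. On these days 459, 862 and 1330 of them rose in IR64(AG1,SUB1). In IR64(AG1) 164, 728 and 1248 did, and in IR64(SUB1) 395, 861 and 1255. Their falls at 4 d numbered 384, 295 and 385 in the same order of lines. The median log2 fold changes of 4 d over 2 d were −1.06 in IR64(AG1,SUB1), −1.06 in IR64(AG1) and −1.19 in IR64(SUB1), where the medians over all genes tested were 0.00, 0.00 and 0.00. The count in IR64(AG1,SUB1) was 46 without its 2 d library of replicate 2. The next 150 genes of the ranking gave 33, 16 and 29 falls in the same 3 lines, with medians of −0.73, −0.58 and −0.72.

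At 8 d the falls took in nearly the whole group. They numbered 142 in IR64(AG1,SUB1), against 9.65% of all genes, 148 in IR64(AG1), against 10.7%, and 150 in IR64(SUB1), against 13.0%. At 14 d 148 of 150 had fallen in each line, against 16.4%, 18.2% and 19.4% of all genes in IR64(AG1,SUB1), IR64(AG1) and IR64(SUB1). Most of the next 150 genes of the ranking fell too. They gave 117, 124 and 142 falls at 8 d and 137, 135 and 144 at 14 d in the same 3 lines. Falls by 8 and 14 d were thus not particular to the group. Of the 11215 genes past the 2 d minimum 1496, 1578 and 2100 fell at 8 d, and 2681, 2783 and 3122 at 14 d. The genes lower on all 3 later days numbered 72 in IR64(AG1,SUB1), against 1.03% of all genes, 73 in IR64(AG1), against 0.768%, and 93 in IR64(SUB1), against 1.3%. At 4 d 43 genes fell in all 3 lines, 38 in 2 of them, 35 in 1 and 34 in none. The matching shares of all genes were not counted. A fall in all 3 lines can hold for no more than the 3.16% of all genes that fell in IR64(AG1).

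The same ranking made within each line returned 74 of the 150 genes in IR64(AG1,SUB1), 101 in IR64(AG1) and 90 in IR64(SUB1), and 52 were found in all 4 genotypes. Each ranking took 150 genes out of the 10981, 11082 and 11136 that passed the 10 CPM minimum in these lines. Of the group 134, 136 and 135 genes passed it, and the rest could not be returned. A further 31 were in the first 150 of none of the 3 lines. These include genes that missed the minimum, among them OS05G0331366 in all 3 lines.

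The few genes not called lower at 14 d are, except for OS02G0156400, outside the rule for named genes and are given with their values known. All of their changes were below 0. At 14 d OS07G0684100 had 57.6, 56.2 and 53.7 CPM in IR64(AG1,SUB1), where it was called lower, 100, 89.6 and 105 CPM in IR64(AG1), 68.9, 59.5 and 87.1 CPM in IR64(SUB1) and 74.4, 64.6 and 82.5 CPM in IR64, and at 8 d it stood lower, at 27.5 to 36.1 CPM in IR64(AG1,SUB1), 23.7 to 36.2 CPM in IR64(AG1), 18.6 and 27 CPM in IR64(SUB1) and 32.4 to 65.8 CPM in IR64. It was one of 2 genes, with OS08G0485000, not called lower at 14 d in either IR64(AG1) or IR64(SUB1). In IR64(AG1,SUB1) the genes not called at 14 d were OS02G0156400, described as a leucine-rich repeat protein, and OS05G0267800.

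The gene at the head of the ranking, OS06G0473800 on chromosome 6, encodes an oleosin family protein, a coat protein of seed oil bodies. At 2 d it had 95.2 and 53.3 CPM in IR64(AG1,SUB1), 27.5, 18.9 and 36.1 CPM in IR64(AG1), 82.6, 64.84 and 72.4 CPM in IR64(SUB1), and 41.2, 47.7 and 43.2 CPM in IR64. At 4 d the values were 8.73 and 5.06 CPM, 5.0, 6.87 and 2.25 CPM, 4.52, 1.60 and 4.81 CPM, and 2.36, 1.85 and 1.15 CPM in the same order of genotypes. Within every genotype the 4 d libraries lay below the 2 d libraries with no overlap. The log2 fold change at 4 d was −3.46 ± 0.49 in IR64(AG1,SUB1) (SE, adjusted p = 1.36e-06), −2.57 ± 0.40 in IR64(AG1) (adjusted p = 6.45e-06) and −4.28 ± 0.42 in IR64(SUB1) (adjusted p = 2.97e-10). At 14 d 1.03, 2.58 and 2.92 CPM were left in IR64(AG1,SUB1), 0.239, 0.161 and 0.36 CPM in IR64(AG1), at most 0.0402 CPM in IR64(SUB1) and at most 0.653 CPM in IR64.

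The oleosin gene also set the lines apart at 2 d. Its log2 fold change was 1.43 ± 0.39 for IR64(AG1,SUB1) over IR64(AG1) (SE, adjusted p = 0.0136) and −1.41 ± 0.36 for IR64(AG1) over IR64(SUB1) (adjusted p = 0.00856), so that IR64(AG1) was the low line and IR64 lay above it without overlap. Leaving out single libraries or changing the test kept the OS06G0473800 call for IR64(AG1,SUB1) over IR64(AG1) in 7 of 10 settings, with adjusted p between 0.00674 and 0.231. The only other oil body gene described, the steroleosin-B gene OS03G0842900, is not in the group, and had 9.65 and 7.16 CPM in IR64(AG1,SUB1) at 2 d against 2.33 to 4.25 CPM in the other genotypes.

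Regulators of seed maturation came further down the ranking. OS01G0911700, the transcription activator VP1, had 179 and 181 CPM at 2 d in IR64(AG1,SUB1), 157, 178 and 179 CPM in IR64(AG1), 229, 231 and 209 CPM in IR64(SUB1), and 239, 223 and 203 CPM in IR64. At 4 d it was at 89.2 and 101 CPM, 88.0, 86.8 and 83.2 CPM, 94.6, 86.3 and 82.6 CPM, and 101, 107 and 87.9 CPM in these genotypes. At 2 d IR64(SUB1) was above the 2 lines with AG1, and IR64 was too, as the choice of genes in IR64 favours. At 4 d all libraries lay between 82.6 and 107 CPM. The fall at 4 d was called in IR64(SUB1), with a log2 fold change of −1.34 ± 0.27 (SE, adjusted p = 1.58e-04), and just missed the size limit in IR64(AG1,SUB1), at −0.92 ± 0.33, and in IR64(AG1), at −1.0 ± 0.27. At 14 d VP1 was at 2.47 to 7.48 CPM in IR64(AG1,SUB1), 0.0402 to 1.12 CPM in IR64(AG1), 0.162 to 0.602 CPM in IR64(SUB1) and 0.229 to 2.03 CPM in IR64.

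OS01G0859300, similar to an ABA response element binding factor, a class of bZIP regulator through which abscisic acid acts on genes, was scarcer. It had 13.2 and 8.53 CPM at 2 d in IR64(AG1,SUB1), 9.32, 5.41 and 8.40 CPM in IR64(AG1), 20.8, 16.4 and 14.9 CPM in IR64(SUB1), and 15.5, 15.1 and 15.7 CPM in IR64. The 2 lines with AG1 had lower values than IR64(SUB1), without overlap. IR64 lay above them too, as the choice of genes in IR64 favours. The test gave a log2 fold change of −1.17 ± 0.35 for IR64(AG1) over IR64(SUB1) (SE, adjusted p = 0.0297), a call kept in 7 of 11 settings, and no call for IR64(AG1,SUB1) over IR64(SUB1). OS08G0545500, similar to the AP2-domain factor DREB1J, had another order, with 16.6 and 18.6 CPM at 2 d in IR64(AG1,SUB1) against 4.61, 4.34 and 7.73 CPM in IR64(AG1), 8.45, 8.59 and 9.99 CPM in IR64(SUB1) and 9.37, 10.9 and 13.0 CPM in IR64. IR64(AG1,SUB1) was above every other library, and its log2 fold change over IR64(AG1) was 1.66 ± 0.37 (SE, adjusted p = 0.00271), called in all 10 settings tried.

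**Figure D3:**
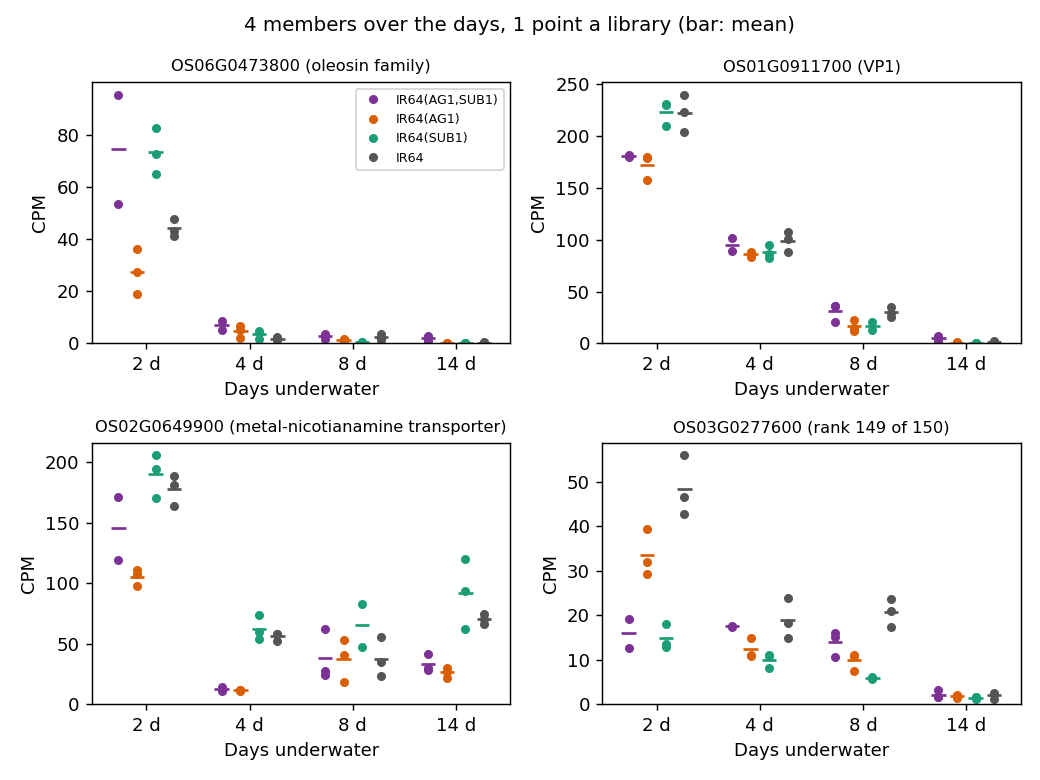
CPM (y axes, linear) of 4 of the 150 genes at 2, 4, 8 and 14 d underwater (x axes) in the 4 genotypes, with 1 point a library and a bar at the mean. The oleosin family gene is down to 1.15 to 8.73 CPM at 4 d in all genotypes, VP1 is at 82.6 to 107 CPM at 4 d in all of them, the metal-nicotianamine transporter gene is at 10.7 to 14.2 CPM at 4 d in the 2 lines with AG1 and at 52.0 to 73.5 CPM in the others, and OS03G0277600, one of the last genes taken, keeps its 2 d level at 4 d in IR64(AG1,SUB1).

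Glutelin and prolamin genes, which are transcribed in the developing endosperm, made up the largest described family. The tables described 10 such genes and 7 of them were in the group. Their summed level at 2 d was 662 and 556 CPM in IR64(AG1,SUB1), 1067, 1359 and 1369 CPM in IR64(AG1), 919, 1162 and 1389 CPM in IR64(SUB1), and 1452, 1124 and 1100 CPM in IR64. Both IR64(AG1,SUB1) libraries were therefore below all 9 others. At 4 d the sums were 294 and 239 CPM in IR64(AG1,SUB1), 655, 551 and 411 CPM in IR64(AG1), 567, 402 and 370 CPM in IR64(SUB1), and 454, 437 and 387 CPM in IR64, again with IR64(AG1,SUB1) lowest and without overlap. The presence of such transcripts in libraries labelled embryo was a feature of all 4 genotypes, and how much endosperm tissue each library held was not tested.

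All 7 genes had point estimates below 0 at 2 d for IR64(AG1,SUB1) over IR64(AG1), with log2 fold changes between −1.67 and −0.80 and a median of −1.09, and likewise over IR64(SUB1), between −1.57 and −0.62 with a median of −1.10. For IR64(AG1) over IR64(SUB1) the median was 0.22 and 2 of 7 were below 0. Only 1 of the 7 was called lower against IR64(AG1) and 2 against IR64(SUB1). The libraries of IR64(AG1,SUB1) did not overlap those of the other lines for 6 of the 7 against IR64(AG1), where 18.7% of all genes showed that pattern, and for 5 of the 7 against IR64(SUB1), where 20.1% did. Members of these families are close copies of each other, and the counting could have split reads between them, so single values are less certain than the sum.

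Among the 7, OS02G0453600, similar to glutelin, was the one called against IR64(SUB1) in all 10 settings tried. It had 110 and 87.9 CPM at 2 d in IR64(AG1,SUB1), against 143, 191 and 199 CPM in IR64(AG1), 217, 292 and 336 CPM in IR64(SUB1) and 258, 219 and 214 CPM in IR64. The log2 fold change over IR64(SUB1) was −1.51 ± 0.28 (SE, adjusted p = 3.47e-04) and that over IR64(AG1), −0.84 ± 0.27, did not reach the size limit. The gene of the 10 kDa prolamin, OS03G0766100, a sulphur-rich storage protein, had 59.6 and 41.9 CPM in IR64(AG1,SUB1), against 104, 109 and 132 CPM in IR64(AG1), 143, 142 and 166 CPM in IR64(SUB1) and 169, 123 and 136 CPM in IR64. Its log2 fold change was −1.18 ± 0.34 over IR64(AG1) (adjusted p = 0.0192) and −1.57 ± 0.34 over IR64(SUB1) (adjusted p = 0.00201), and it was the one of the 7 called against both lines.

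The most abundant of the family was OS05G0328800, prolamin 7, with 393 and 364 CPM at 2 d in IR64(AG1,SUB1), 689, 868 and 866 CPM in IR64(AG1), 457, 598 and 725 CPM in IR64(SUB1), and 799, 606 and 587 CPM in IR64. It was lowest in IR64(AG1,SUB1) but was called against neither line. OS05G0331366, also similar to prolamin, behaved differently, with 2.10 and 1.08 CPM in IR64(AG1,SUB1), 3.63 to 5.16 CPM in IR64(AG1), 2.96 to 3.85 CPM in IR64(SUB1) and 18.8 to 26.4 CPM in IR64. All 3 introgression lines thus stood far below IR64 for this gene, a direction that the choice of genes in IR64 favours. It did not reach the 10 CPM minimum in any of them. OS03G0427300, a glutelin type-A III precursor, had 30.4 and 19.2 CPM in IR64(AG1,SUB1), 29.5 to 54.4 CPM in IR64(AG1), 29.3 to 50.5 CPM in IR64(SUB1) and 37.9 to 53.1 CPM in IR64. Its IR64(AG1,SUB1) libraries overlapped those of both other lines. OS05G0328333, similar to prolamin, had 60.6 and 40.6 CPM in IR64(AG1,SUB1), 89.4 to 118 CPM in IR64(AG1), 60.3 to 96.2 CPM in IR64(SUB1) and 96.3 to 133 CPM in IR64. OS02G0249000, a glutelin gene, had 6.40 and 1.23 CPM in IR64(AG1,SUB1), 9.65 to 13.9 CPM in IR64(AG1), 9.33 to 11.5 CPM in IR64(SUB1) and 8.71 to 13.7 CPM in IR64. None of these 4 was called between lines at 2 d.

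The storage genes fell with time in every line. At 4 d the falls passed the test for 0 of the 7 in IR64(AG1,SUB1), 2 in IR64(AG1) and 5 in IR64(SUB1), and at 8 and 14 d for all 7 in each of the 3 lines. The 7 changes at 4 d had a median of −0.94 in IR64(AG1,SUB1), −1.24 in IR64(AG1) and −1.32 in IR64(SUB1), and no difference between these changes was called for any of the 7. Of the 3 described genes of these families that were not in the group, OS01G0111900 went the other way, with 85.2 to 112 CPM at 4 d against 42.0 to 82.6 CPM at 2 d over the 4 genotypes. At 2 d it had 82.6 and 62.1 CPM in IR64(AG1,SUB1), 69.2 to 76.0 CPM in IR64(AG1) and 46.3 to 49.7 CPM in IR64(SUB1). IR64(AG1,SUB1) was thus not the lowest line for it. OS01G0607000 was at most 0.666 CPM at 2 d and 8.01 to 17.6 CPM at 14 d. OS05G0331800 had 3.55 to 6.84 CPM at 2 d in IR64 and at most 0.972 CPM in the 3 lines.

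Other grain genes had the same order of lines at 2 d. OS06G0133000, granule-bound starch synthase I, which makes amylose in the endosperm, had 36.6 and 38.2 CPM in IR64(AG1,SUB1), 92.5, 85.9 and 91.0 CPM in IR64(AG1), 87.9, 106 and 107 CPM in IR64(SUB1), and 133, 117 and 81.3 CPM in IR64. The level in IR64(AG1,SUB1) was below all others, with a log2 fold change of −1.26 ± 0.36 over IR64(AG1) (SE, adjusted p = 0.0177) and −1.42 ± 0.36 over IR64(SUB1) (adjusted p = 0.00793), each called in 7 of 10 settings. OS06G0507200, described as a bifunctional inhibitor, lipid transfer and seed storage domain protein, had 51.3 and 49.0 CPM in IR64(AG1,SUB1), against 102, 128 and 127 CPM in IR64(AG1), 121, 131 and 133 CPM in IR64(SUB1) and 168, 136 and 141 CPM in IR64. Its log2 fold changes were −1.25 ± 0.40 over IR64(AG1) (adjusted p = 0.0428) and −1.35 ± 0.40 over IR64(SUB1) (adjusted p = 0.0284), calls kept in only 3 and 5 of 10 settings.

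**Figure D4:**
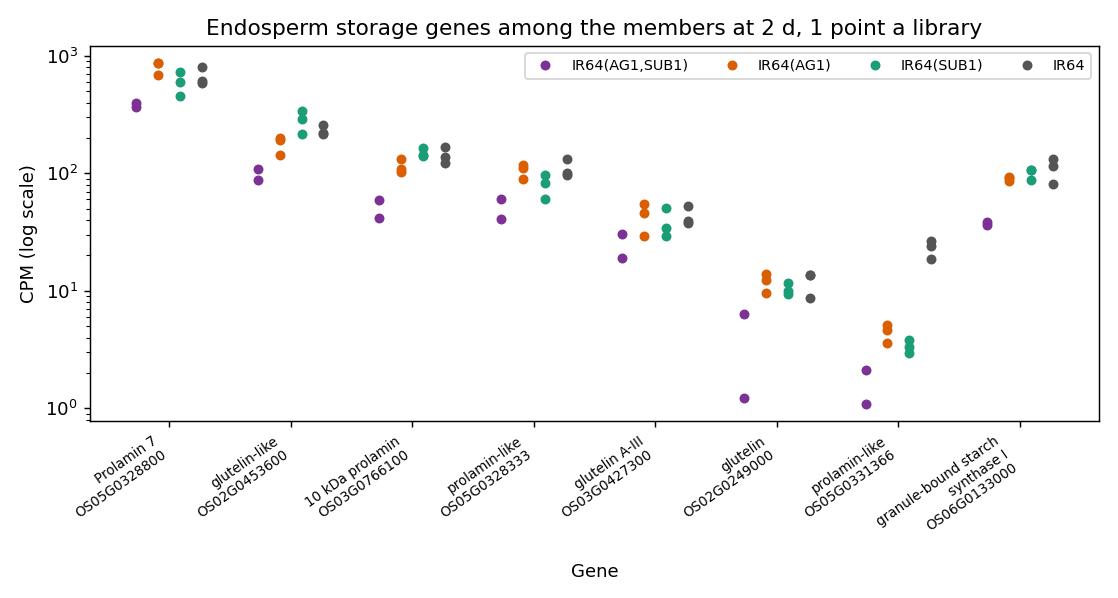
CPM at 2 d (y axis, log scale) of the 7 glutelin and prolamin genes of the group and of granule-bound starch synthase I (x axis) in the 4 genotypes, with 1 point a library. For 5 of the 7 storage genes both IR64(AG1,SUB1) libraries lie below all libraries of IR64(AG1) and IR64(SUB1), and the prolamin-like gene OS05G0331366 is at 18.8 to 26.4 CPM in IR64 and at 1.08 to 5.16 CPM in the 3 other lines.

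Not every seed protein of the group followed this order. OS03G0197300, similar to a cupin family protein, a fold shared by seed storage globulins and many other proteins, had 5.70 and 8.53 CPM at 2 d in IR64(AG1,SUB1), 31.5, 36.0 and 25.9 CPM in IR64(AG1), 7.34, 5.50 and 7.02 CPM in IR64(SUB1), and 41.2, 32.7 and 21.0 CPM in IR64. The 2 lines with SUB1 were low and IR64(AG1) was high. IR64 was high too, as the choice of genes in IR64 favours. The log2 fold change was −2.12 ± 0.60 for IR64(AG1,SUB1) over IR64(AG1) (SE, adjusted p = 0.018, called in 6 of 10 settings) and 2.22 ± 0.51 for IR64(AG1) over IR64(SUB1) (adjusted p = 0.00374, called in all 11 settings). OS03G0111300, encoding the secreted lipid-binding nonspecific lipid-transfer protein 2, had 84.7 and 67.2 CPM in IR64(AG1,SUB1), 89.3 to 161 CPM in IR64(AG1), 68.1 to 86.8 CPM in IR64(SUB1) and 127 to 158 CPM in IR64, with no call between lines. OS01G0915200, similar to cysteine proteinase inhibitor B, which blocks papain-type proteases, was among the more abundant described genes, at 210 to 372 CPM at 2 d, and had the slow course of the lower ranks, at 158 to 211 CPM at 4 d and 18.1 to 79.5 CPM at 8 d.

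Of the other described genes near the top, OS03G0156600, similar to the farnesylated protein ATFP6, had 37.3 and 38.7 CPM at 2 d in IR64(AG1,SUB1), 9.91 to 22.2 CPM in IR64(AG1), 17.9 to 34.4 CPM in IR64(SUB1) and 22.6 to 33.8 CPM in IR64, and fell at 4 d in all 3 lines, with log2 fold changes of −2.44, −1.66 and −2.30 in IR64(AG1,SUB1), IR64(AG1) and IR64(SUB1). OS03G0750000, similar to an ethylene-responsive protein, had 18.7 and 18.5 CPM at 4 d in IR64(AG1,SUB1), where the change was not called, against 7.64 to 11.3 CPM in IR64(AG1), 8.84 to 11.2 CPM in IR64(SUB1) and 5.86 to 7.74 CPM in IR64.

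Of the 3800 genes with a description 41 were in the group, so that at that share a short list would hold few members or none. Genes were assigned to lists by matching words in their descriptions. None of the 8 matched as LEA and dehydrin genes, 37 as heat shock and chaperone genes or 80 as antioxidant and detoxification genes was a member. The same held for the 19 matched as sugar and storage carbohydrate genes and the 22 as ribosome and translation genes. The match missed the member OS06G0133000, granule-bound starch synthase I. The group held 1 of 2 genes matched as oil body proteins, 9 of 21 genes matched as seed storage proteins, 1 of 7 in abscisic acid signalling and dormancy, 2 of 158 transcription factors, 2 of 67 lipid transfer and cell wall genes, 1 of 85 transporters and 1 of 65 proteases and inhibitors. These shares describe only genes with a description that the words matched. OS01G0859300, similar to an ABA response element binding factor, and the DREB1J-like OS08G0545500 were matched neither as abscisic acid genes nor as transcription factors. The group therefore holds more regulators than these counts show.

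Many of the genes lay side by side. With identifiers at most 5 places apart in the table counted as neighbours, 42 of the 150 fell into 16 blocks, where the next 150 of the ranking had 4 genes in 2 blocks. The longest block was OS07G0213600 to OS07G0216700 on chromosome 7, with 8 of 12 consecutive identifiers and no description. Its summed level at 2 d was 410 and 338 CPM in IR64(AG1,SUB1), 699, 869 and 902 CPM in IR64(AG1), 718, 852 and 973 CPM in IR64(SUB1), and 1201, 927 and 870 CPM in IR64. The 2 IR64(AG1,SUB1) libraries were the lowest, and all 8 genes had a log2 fold change below 0 against both lines, between −1.28 and −0.81 over IR64(AG1), where 4 were called, and between −1.31 and −0.69 over IR64(SUB1), where 3 were called. At 4 d the sums were 200 and 184 CPM in IR64(AG1,SUB1), 296 to 377 CPM in IR64(AG1), 283 to 379 CPM in IR64(SUB1) and 286 to 328 CPM in IR64, and none of the 8 was called between lines.

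A block of 4 consecutive identifiers on chromosome 12, OS12G0269100 to OS12G0269700, had the same order at 2 d, with 724 and 580 CPM in IR64(AG1,SUB1), 987, 1322 and 1325 CPM in IR64(AG1), 970, 1262 and 1493 CPM in IR64(SUB1), and 1509, 1278 and 1306 CPM in IR64. Its 4 genes were below 0 against both lines, with medians of −1.06 and −0.92, and none was called. The chromosome 5 block OS05G0328333 to OS05G0328901, with 4 members of which 2 are described as prolamins, summed to 539 and 485 CPM in IR64(AG1,SUB1), 907, 1139 and 1146 CPM in IR64(AG1), 605, 796 and 980 CPM in IR64(SUB1) and 1080, 813 and 821 CPM in IR64. All 4 were below 0 over IR64(AG1), with a median of −1.01. Over IR64(SUB1) 3 were below 0, with a median of −0.65 and a highest value of 0.21. None was called in either comparison. Whether reads were shared between neighbouring copies was not tested.

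Few of the 150 genes differed between lines at 2 d by the test. For IR64(AG1,SUB1) over IR64(AG1) 2 were higher and 10 lower, where 3.9% of all genes were called and 2.8% were lower. Over IR64(SUB1) 1 was higher and 10 lower, where 3.45% were called and 2.31% were lower. In each of these comparisons 5 of the 10 lower genes were glutelin or prolamin genes or lay in the chromosome 7 block. For IR64(AG1) over IR64(SUB1) 2 were higher and 4 lower, where 2.42% were called and 0.859% were lower. Apart from the 19 genes of the glutelin and prolamin families and of the chromosome 7 and 12 blocks, the median log2 fold change of the 131 others was 0.14 over IR64(AG1) and 0.02 over IR64(SUB1). The blocks were set apart with their values seen, so the median of the rest is a description and not a test. The undescribed genes of the chromosome 5 block stayed among the 131. The libraries of IR64(AG1,SUB1) lay below those of both other lines for 34 of the 150, against 10.4% of all genes. Set against IR64(AG1) alone, 49 of the 150 lay below without overlap, against 18.7% of all genes, and 41 above, against 14.7%. Set against IR64(SUB1) alone, 49 lay below, against 20.1%, and 27 above, against 14.9%.

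**Figure D5:**
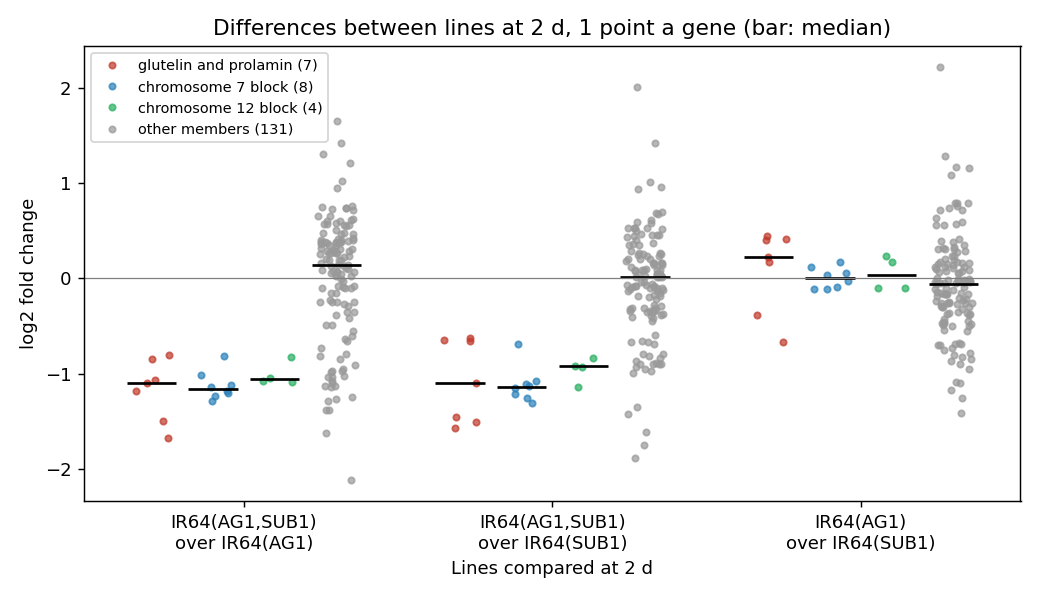
Log2 fold change at 2 d (y axis) between the 3 introgression lines (x axis), with 1 point a gene and a bar at the median, for the 7 glutelin and prolamin genes, the 8 genes of the chromosome 7 block, the 4 of the chromosome 12 block and the 131 other members. The medians of the first 3 sets are between −1.16 and −0.92 for IR64(AG1,SUB1) over either line and between 0.01 and 0.22 for IR64(AG1) over IR64(SUB1). The blocks were chosen with their values seen, and the chromosome 5 block is not drawn as a set.

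These counts rest on few libraries. The 10 lower genes for IR64(AG1,SUB1) over IR64(AG1) became 1 without the IR64(AG1,SUB1) library of replicate 3, 5 without that of replicate 2, 4 without the IR64(AG1) library of replicate 2 and 4 without that of replicate 3, while a fit of the compared libraries alone gave 25. The 2 higher genes in that comparison became 1 without the IR64(AG1) library of replicate 2 and 4 without that of replicate 3. The 10 lower genes over IR64(SUB1) became 3 without the IR64(AG1,SUB1) library of replicate 3 and 6 without the IR64(SUB1) library of replicate 3, without which the 1 higher gene was also lost. For IR64(AG1) over IR64(SUB1) the 4 lower genes became 2 without the IR64(AG1) library of replicate 2 or the IR64(SUB1) library of replicate 1. The IR64(AG1,SUB1) library of replicate 3 is the one with the fewest genes with a count, and its part in the lower values was not tested.

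Among the genes called at 2 d that carry no description, OS09G0427125 had 42.1 and 34.3 CPM in IR64(AG1,SUB1), 118, 114 and 122 CPM in IR64(AG1), 131, 123 and 130 CPM in IR64(SUB1), and 109, 129 and 134 CPM in IR64. The other 3 genotypes were alike and IR64(AG1,SUB1) was at about one level far below them, with log2 fold changes of −1.63 ± 0.38 over IR64(AG1) (SE, adjusted p = 0.00432) and −1.74 ± 0.38 over IR64(SUB1) (adjusted p = 0.00227). The gap was still there at 4 d, with 14.0 and 11 CPM in IR64(AG1,SUB1), 37.1 to 50.8 CPM in IR64(AG1), 40.6 to 56.6 CPM in IR64(SUB1) and 27.5 to 43.1 CPM in IR64. OS09G0367700 was called higher over IR64(SUB1), at 247 and 132 CPM in IR64(AG1,SUB1) against 55.8, 52.2 and 32.8 CPM in IR64(SUB1), with 62.3 to 106 CPM in IR64(AG1) and 31.3 to 49.3 CPM in IR64, and its log2 fold change was 2.01 ± 0.54 (adjusted p = 0.0137), a call kept in 6 of 10 settings. The leucine-rich repeat gene OS02G0156400 had 2.98 and 9.83 CPM in IR64(AG1,SUB1), against 7.13 to 12.9 CPM in IR64(AG1), 17.7 to 21.9 CPM in IR64(SUB1) and 19.8 to 25.4 CPM in IR64.

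The genes called at 4 d between lines were few, and several separated the 2 lines with AG1 from IR64(SUB1). For IR64(AG1,SUB1) over IR64(SUB1) 1 was higher and 5 lower, where 0.863% of all genes were called and 0.584% were lower. For IR64(AG1) over IR64(SUB1) none was higher and 4 were lower, where 1.12% were called and 0.634% were lower, and for IR64(AG1,SUB1) over IR64(AG1) 1 was higher and 3 lower, where 0.913% were called and 0.504% were lower. Both comparisons with IR64(SUB1) share its 3 libraries. The 5 lower genes of the first were OS02G0649900, OS03G0431600, OS07G0258400, OS04G0561200 and OS09G0427125, and the 4 of the second were the first 4 of these.

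OS02G0649900 encodes a metal-nicotianamine transporter annotated as carrying iron and manganese to the endosperm. At 4 d it had 11.2 and 14.2 CPM in IR64(AG1,SUB1), 10.7, 12.1 and 11.8 CPM in IR64(AG1), 54.1, 59.7 and 73.5 CPM in IR64(SUB1), and 58.5, 52.0 and 58.4 CPM in IR64. The 2 lines with AG1 were at one low level and the 2 genotypes without it at one high level. The log2 fold change was −2.28 ± 0.37 for IR64(AG1,SUB1) over IR64(SUB1) (SE, adjusted p = 2.53e-04) and −2.43 ± 0.32 for IR64(AG1) over IR64(SUB1) (adjusted p = 1.24e-06), called in all 10 and all 11 settings tried. At 2 d the values were 120 and 171 CPM in IR64(AG1,SUB1), 111, 108 and 97.5 CPM in IR64(AG1), 170, 206 and 194 CPM in IR64(SUB1), and 189, 181 and 164 CPM in IR64. By 8 d the genotypes overlapped, at 24.5 to 62.1 CPM in IR64(AG1,SUB1), 18.3 to 53.0 CPM in IR64(AG1), 47.6 and 82.7 CPM in IR64(SUB1) and 23.1 to 55.2 CPM in IR64. At 14 d they were apart again, at 28.3 to 41.8 CPM in IR64(AG1,SUB1), 21.8 to 30.4 CPM in IR64(AG1), 62.3 to 120 CPM in IR64(SUB1) and 66.3 to 74.4 CPM in IR64.

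OS03G0431600, described only as a hypothetical conserved gene, had the same split at lower levels, with 0.802 and 1.16 CPM at 4 d in IR64(AG1,SUB1), 0.459, 0.42 and 0.107 CPM in IR64(AG1), 4.57, 4.18 and 6.89 CPM in IR64(SUB1), and 4.08, 4.69 and 3.95 CPM in IR64. Its log2 fold change was −2.36 ± 0.55 for IR64(AG1,SUB1) over IR64(SUB1) (SE, adjusted p = 0.0168) and −4.0 ± 0.56 for IR64(AG1) over IR64(SUB1) (adjusted p = 3.93e-06). The first of these calls was kept in 7 of 10 settings and the second in all 11. At 2 d its libraries lay closer together, at 6.58 and 10.3 CPM in IR64(AG1,SUB1), 6.20 to 11.8 CPM in IR64(AG1), 11 to 12.3 CPM in IR64(SUB1) and 10.4 to 14.4 CPM in IR64. OS07G0258400, which has no description, had 4.36 and 4.2 CPM at 4 d in IR64(AG1,SUB1), 2.58, 3.15 and 2.68 CPM in IR64(AG1), 11.2, 9.51 and 12.5 CPM in IR64(SUB1), and 7.85, 7.84 and 8.48 CPM in IR64, and was the one of these 4 genes already called at 2 d, with a log2 fold change of −1.26 ± 0.27 for IR64(AG1) over IR64(SUB1) (adjusted p = 0.00211). Its 4 d call for IR64(AG1,SUB1) over IR64(SUB1) was kept in only 5 of 10 settings, and that for IR64(AG1) in all 11.

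OS04G0561200, similar to a retinaldehyde-binding, triple function domain protein and named here for its call at 4 d, was high in IR64(SUB1) alone, with 5.08 and 9.97 CPM at 4 d in IR64(AG1,SUB1), 10.6 to 12.8 CPM in IR64(AG1), 27.5 to 32.4 CPM in IR64(SUB1) and 8.87 to 13.0 CPM in IR64. OS02G0639300, the one gene higher in IR64(AG1,SUB1) than in IR64(SUB1) and likewise outside the rule, had 34.0 and 27.2 CPM against 6.76 to 13.0 CPM, with 10.7 to 26.8 CPM in IR64(AG1) and 10.7 to 14.1 CPM in IR64. For IR64(AG1,SUB1) over IR64(AG1) the 3 lower genes were OS09G0427125, OS06G0507200 and OS07G0639000 and the higher one was OS10G0454200. Without single 4 d libraries of either line the higher count was 0, and the lower count was 0 without the IR64(AG1,SUB1) 4 d library of replicate 2 and 1 without the IR64(AG1) 4 d library of replicate 1. Against IR64(SUB1) the 5 lower genes became 2 without the IR64(AG1,SUB1) 4 d library of replicate 1, 1 without that of replicate 2 and 3 without the IR64(SUB1) 4 d library of replicate 3, and the higher gene was lost without either IR64(AG1,SUB1) library and without the IR64(SUB1) libraries of replicates 2 and 3.

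The neighbours OS10G0454200 and OS10G0454300, without description, were exceptions to the fall at 4 d in IR64(AG1,SUB1). OS10G0454200 had 68.0 and 66.3 CPM at 4 d in IR64(AG1,SUB1), against 57.3 and 47.4 CPM at 2 d. In IR64(AG1) it had 27, 20.0 and 25.3 CPM at 4 d, against 84.3, 74.2 and 86.0 CPM at 2 d, and in IR64, 27.9, 29.4 and 23.3 CPM against 114, 111 and 110 CPM. The gene thus kept its level to 4 d only in the pyramided line among these 3, and IR64(SUB1) lay between, at 41.9, 27 and 41.8 CPM at 4 d against 59.1, 52.6 and 85.6 CPM at 2 d. OS10G0454300 had 104.5 and 113 CPM at 4 d in IR64(AG1,SUB1), against 85.8 and 47.1 CPM at 2 d.

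Tests of the difference between lines in the change from 2 to 4 d called few genes. For IR64(AG1,SUB1) minus IR64(AG1) 2 had the higher change and 1 the lower, where 0.829% of all genes were called and 0.157% had the lower change. For IR64(AG1,SUB1) minus IR64(SUB1) none had the higher change and 1 the lower, where 1.02% were called and 0.26% had the lower change, and for IR64(AG1) minus IR64(SUB1) 2 had the higher change and 1 the lower, where 0.512% were called and 0.405% had the lower change. The transporter gene OS02G0649900 fell more in IR64(AG1,SUB1) than in IR64(SUB1), by a difference in log2 change of −1.89 ± 0.48 (SE, adjusted p = 0.0278), and OS03G0431600 fell more in IR64(AG1) than in IR64(SUB1), by −3.50 ± 0.69 (adjusted p = 0.0059), the one call of this kind kept in all 17 settings tried. Without the IR64(AG1,SUB1) 4 d library of replicate 1 no gene was called for that line against either other, and without the IR64(AG1) 4 d library of replicate 1 no gene had the higher change in IR64(AG1) than in IR64(SUB1).

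OS03G0277600, at the edge of the group, differed between lines at 2 d rather than later. It had 19.1 and 12.7 CPM at 2 d in IR64(AG1,SUB1), 39.5, 29.2 and 31.9 CPM in IR64(AG1), 18.1, 13.0 and 13.6 CPM in IR64(SUB1), and 42.8, 55.9 and 46.5 CPM in IR64. As for the cupin gene, the 2 lines with SUB1 were below IR64(AG1), with log2 fold changes of −1.08 ± 0.26 for IR64(AG1,SUB1) over IR64(AG1) (SE, adjusted p = 0.00523) and 1.17 ± 0.23 for IR64(AG1) over IR64(SUB1) (adjusted p = 5.00e-04). IR64 was above both SUB1 lines too, as the choice of genes in IR64 favours. Its neighbour OS03G0277500, similar to a glyoxalase family protein and chosen here for its place, had 2.89 and 3.76 CPM in IR64(AG1,SUB1), 5.33 to 12.4 CPM in IR64(AG1), 3.04 to 4.42 CPM in IR64(SUB1) and 8.71 to 16.6 CPM in IR64, with no call between lines.

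OS07G0639000, also without description, was the one gene with 2 such calls. At 4 d it had 6.77 and 9.26 CPM in IR64(AG1,SUB1), 17.1, 13.9 and 19.5 CPM in IR64(AG1), 13.4, 13.2 and 15 CPM in IR64(SUB1), and 5.27, 6.77 and 10 CPM in IR64. At 2 d it had 23.0 and 22.8 CPM in IR64(AG1,SUB1), 15.2, 14.1 and 12.3 CPM in IR64(AG1), 34.0, 29.8 and 24.9 CPM in IR64(SUB1), and 15.7, 18 and 12.9 CPM in IR64. In IR64(AG1) the 4 d and 2 d libraries overlapped, whereas in the 3 other genotypes the 4 d libraries were lower without overlap. OS06G0647801 had 37.3, 31.0 and 35.8 CPM at 4 d in IR64(AG1), against 43.1, 44.2 and 49.7 CPM at 2 d, and 26.6, 20.6 and 23.1 CPM at 4 d in IR64(SUB1), against 67.7, 51.6 and 67.2 CPM at 2 d.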

How the data were processed

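Paired-end, strand-specific libraries from poly(A) RNA were trimmed and aligned by the authors with Bowtie2 2.2.5 and TopHat2 2.0.14 to the Nipponbare genome IRGSP-1.0 with the SUB1A-1 sequence added, and the counts per gene deposited by the authors are reads over exons in union mode, not normalized. Indica reads that differ from this japonica reference may be counted less.

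The 45 columns, with totals of 12256409 to 24870831 (median 20459708), were grouped by genotype and day as labelled. The members and the gene lists were chosen with earlier results of these data known. Counts were fitted in edgeR 4.0.16 (R 4.3.3) over 16 groups with TMM scaling, filterByExpr and the quasi-likelihood test, leaving 26180 genes, with Benjamini-Hochberg adjustment over all of them and a call at an adjusted p under 0.05 and a log2 fold change beyond 1. On simulated counts with 200 genes changed 4-fold, 97.5%, 99.5% and 100% were recovered for 4 d over 2 d in IR64(AG1,SUB1), IR64(AG1) and IR64(SUB1), each on about 25175 genes. The 200 were drawn only from genes with an average log2 CPM above 2, and 4-fold is larger than the median fall of the members at 4 d. Recovery of smaller falls and of differences between lines was not simulated. P-values measure the spread between these pools of seedlings.

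Named genes were the first 10 of the ranking, up to 4 members a list, the called members of largest change between lines (5 in each direction at 2 d, 3 for differences in change) and the genes on either side of the edge of the group, where described. Genes given by identifier alone, the blocks and the exceptions were chosen after their values were seen. Alternatives were no filter, 5 counts added with edgeR's likelihood ratio test, DESeq2 1.42.0, a fit of the compared groups alone, a replicate block, each library left out, and members ranked with TMM library sizes or with 5 CPM added. Promoters, proteins and coordinates were not analysed here, since the identifiers paired with none of the reference genes used. TPP7 was not analysed here.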

Additional observations from a re-analysis of the deposited data

Results flagged for a closer look

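A total of 7 differences between lines in the change from 2 to 4 d passed the test of the difference itself (edgeR, quasi-likelihood, adjusted over 26180 genes), and none of these was chosen before its value was seen. OS10G0454200 had the higher change in IR64(AG1,SUB1), where its mean was 67.1 CPM at 4 d against 52.4 CPM at 2 d, when set against IR64(AG1), with a difference in log2 change of 2.11 ± 0.53 (SE, adjusted p = 0.0368), kept in 4 of 15 settings. OS07G0639000 had the lower change in IR64(AG1,SUB1) when set against IR64(AG1), by −1.78 ± 0.39 (adjusted p = 0.0146, 14 of 15 settings), and had the higher change in IR64(AG1), where its mean was 16.8 CPM at 4 d against 13.9 CPM at 2 d, than in IR64(SUB1), by 1.37 ± 0.34 (adjusted p = 0.0358, 7 of 17 settings). For OS03G0277600 the change in IR64(AG1,SUB1), where its mean was 17.5 CPM at 4 d against 15.9 CPM at 2 d, was also higher when set against IR64(AG1), by 1.59 ± 0.36 (adjusted p = 0.0184, 11 of 15 settings).

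OS02G0649900, the metal-nicotianamine transporter gene, fell more in IR64(AG1,SUB1) than in IR64(SUB1), by −1.89 ± 0.48 (SE, adjusted p = 0.0278, 8 of 15 settings). OS03G0431600 fell more in IR64(AG1) than in IR64(SUB1), by −3.50 ± 0.69 (adjusted p = 0.0059, 17 of 17 settings), with 4 d levels of 0.459, 0.42 and 0.107 CPM in IR64(AG1) against 4.57, 4.18 and 6.89 CPM in IR64(SUB1). OS06G0647801 had the higher change in IR64(AG1) when set against IR64(SUB1), by 1.01 ± 0.23 (adjusted p = 0.0204, 7 of 17 settings). No group had more than 3 libraries, so single libraries were not screened as outliers.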

How the results depend on the processing

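The falls after 2 d kept their counts within 1.5 times under every other setting except single left-out libraries. Genes lower at 4 d numbered 46 to 75 in IR64(AG1,SUB1), 56 to 75 in IR64(AG1) and 84 to 96 in IR64(SUB1) as libraries were left out, and those lower on all 3 later days 46 to 75, 53 to 74 and 83 to 96. Differences between lines were less stable, and the cause was not tested.

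With the compared libraries fitted alone, IR64(AG1,SUB1) over IR64(AG1) gave 4 higher and 25 lower at 2 d and 3 higher and 15 lower at 4 d, IR64(AG1,SUB1) over IR64(SUB1) gave 3 higher at 2 d and 3 higher and 9 lower at 4 d, IR64(AG1) over IR64(SUB1) gave 5 higher at 2 d, and of the changes from 2 to 4 d, IR64(AG1,SUB1) minus IR64(SUB1) gave 3 lower and 2 higher changes and IR64(AG1) minus IR64(SUB1) gave 5 lower changes. DESeq2 gave 1 higher and 6 lower at 2 d and 2 higher at 4 d for IR64(AG1,SUB1) over IR64(AG1), 2 higher at 2 d over IR64(SUB1), and 2 lower changes and 1 higher change for IR64(AG1) minus IR64(SUB1). With 5 counts added and the likelihood ratio test, IR64(AG1,SUB1) over IR64(AG1) gave 0 higher at 4 d, IR64(AG1,SUB1) over IR64(SUB1) gave 0 higher and 17 lower at 2 d, and the changes gave 1 higher change against IR64(AG1) and 0 lower changes against IR64(SUB1). Without the filter IR64(AG1) minus IR64(SUB1) gave 2 lower changes. With members ranked with 5 CPM added, the changes gave 0 lower changes for IR64(AG1,SUB1) minus IR64(AG1) and 1 higher change for IR64(AG1) minus IR64(SUB1).

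Replicate numbers did not pair the libraries: correlations of deviations over 36 same-numbered pairs ran between −0.031 and 0.057. The replicate block moved 2 counts by over 1.5 times, to 2 higher genes for IR64(AG1,SUB1) over IR64(SUB1) at 2 d and 2 lower changes for IR64(AG1) minus IR64(SUB1).

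As libraries were left out, with a lone library assumed to vary like the other groups, IR64(AG1,SUB1) over IR64(AG1) gave 1 to 4 higher and 1 to 7 lower at 2 d and 0 higher and 0 to 3 lower at 4 d. IR64(AG1,SUB1) over IR64(SUB1) gave 0 to 1 higher and 3 to 10 lower at 2 d and 0 to 1 higher and 1 to 4 lower at 4 d, and IR64(AG1) over IR64(SUB1) 2 to 5 lower at 2 d. The changes gave 0 to 1 lower and 0 to 1 higher changes for IR64(AG1,SUB1) minus IR64(AG1), 0 to 1 and 0 to 1 for IR64(AG1,SUB1) minus IR64(SUB1), and 0 to 2 higher changes for IR64(AG1) minus IR64(SUB1). Of 115 gene calls, 58 held under every setting and none reversed. A level of 3 counts was 0.121 to 0.245 CPM, depending on the library, and values near it are limited by depth.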
